A study of Mus musculus with 2 samples.

Results

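The 9 genes described here follow new granule neurons of the dentate gyrus from stem cell to immature neuron: Sox2, Pax6 and Hopx for stem cells, Neurog2 and Eomes for intermediate progenitors, and Neurod1, Prox1, Sox11 and Igfbpl1 for immature granule neurons. They were chosen by gene symbol for this known role, and all 9 were found among the 55536 annotated genes of the gene tables, with 41 of the 141767 transcripts. The measurements are total RNA sequencing of hippocampus from mice of 10 days (P10), an age at which the dentate gyrus is still adding granule neurons. There was 1 group with 2 biological replicates, so no conditions were compared. Both replicates came from B6CASTF1/J mice, hybrids of C57BL/6J with CAST/EiJ, with no treatment or engineered allele in the labels. The labels name 3 males for each library, and do not spell out whether their RNA was pooled. Each library started from 300 ng of RNA with added spike-in RNA.

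In the postnatal dentate gyrus, radial glia-like stem cells divide to give intermediate progenitors, which divide a few more times and leave the cell cycle as immature granule neurons. Transcription factors mark these steps: SOX2 and PAX6 in stem cells, then the proneural factor NEUROG2 and the T-box factor EOMES, then NEUROD1 and PROX1 as granule cell identity is set, with SOX11 high in young neurons before they mature. Several of these genes are also used outside the lineage, for example Sox2 and Hopx in astrocytes and Prox1 in some interneurons.

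The libraries held 32035705 and 29747193 expected counts (estimated reads per gene), and rows that name no gene held 0.358% and 0.359% of them. Levels are given as TPM, a level per transcript length with an equal total in both libraries. The sex-linked genes went against the label of 1 library: Xist was at 25 counts in the first library and 30841 in the second, the library labelled male, replicate 2, while Ddx3y was at 2164 and 0. Replicate 2 means this second library throughout, and each difference between the libraries is also a difference between libraries that differ in this way. The biological coefficient of variation between the libraries was 0.0688 over 17874 genes. At a TPM of at least 1 in both libraries, 13062 of 22015 nuclear protein-coding genes were detected, and so were 8 of the 9 neurogenesis genes. The exception was Neurog2, which passed that level in replicate 2 alone.

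The profile over the stages was low in the middle and high at both ends. The stem cell genes had a median of 22.8 TPM in replicate 1 and 29.1 in replicate 2, or 26.0 ± 4.50 (SD, n = 2). This was the value of Sox2, the middle of the 3 stem cell genes, in both libraries. The intermediate progenitor genes had medians of 1.84 and 1.78 TPM, or 1.81 ± 0.0424 (n = 2). The immature granule neuron genes had medians of 31.1 and 31.7 TPM, or 31.4 ± 0.428 (n = 2). In bulk RNA a low level of a stage's genes can come from fewer cells or from less RNA per cell, and the libraries cannot tell these apart. The values of the intermediate progenitor genes lay below those of every other gene of the group in both libraries, while the stem cell and immature neuron ranges overlapped. The lowest and highest single values were 5.15 and 36.8 TPM for the stem cell genes and 26.7 and 49.6 TPM for the immature neuron genes.

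**Figure D1:**
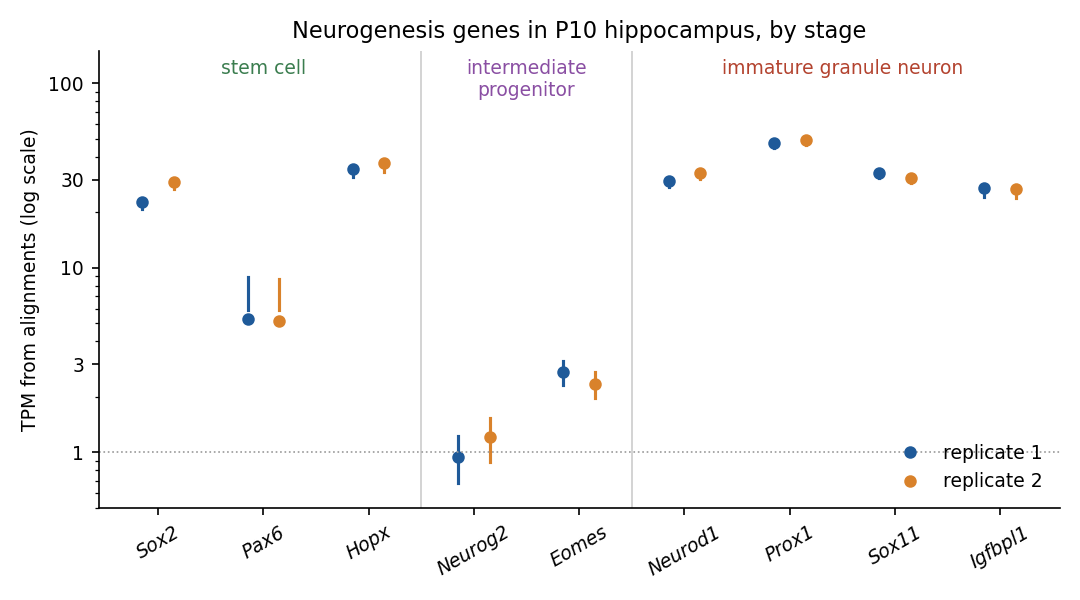
TPM from alignments on a log axis for the 9 genes ordered by stage, 1 point per library, with vertical lines for the authors' deposited interval on each TPM and a dotted line at 1 TPM. The intermediate progenitor genes lie between 0.95 and 2.72 TPM, and for Pax6 both points lie under their own intervals.

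Among the stem cell genes, Sox2, a transcription factor that maintains neural stem cells (mm10, chr3:34650405-34652461, a single-exon gene), stood at 22.8 TPM in replicate 1 and 29.1 in replicate 2. Its mean was 26.0 ± 4.50 TPM (SD, n = 2), the widest spread of the 9 genes, on 967 and 1149 counts. The 2 values did not come within each other's deposited intervals, which ran from 20.7 to 23.5 and from 26.6 to 29.8 TPM. Hopx, which codes for a small homeodomain protein that marks quiescent stem cells in the adult dentate (chr5:77086988-77115121), stood at 34.3 and 36.8 TPM, a mean of 35.6 ± 1.78 (n = 2) on 772 and 766 counts. It was the highest of the 3 stem cell genes in both libraries. Pax6, a paired-box and homeobox factor of radial glia (chr2:105668900-105697364), stood at 5.30 and 5.15 TPM, or 5.23 ± 0.106 (n = 2), on 238 and 219 counts. Sox2 thus exceeded Pax6 by 2.10 and 2.50 on the log2 scale in the 2 libraries, a mean of 2.30 ± 0.28.

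Of the intermediate progenitor genes, Neurog2, a basic helix-loop-helix factor that starts neuronal differentiation (chr3:127633135-127635631), was the lowest of the 9, at 0.95 and 1.21 TPM, or 1.08 ± 0.184 (n = 2). It rested on 44 and 52 counts, with exact Poisson intervals at 95% of 32.0 to 59.1 and 38.8 to 68.2. These intervals cover counting error only. Eomes, the T-box factor known as TBR2 (chr9:118478212-118486132), stood at 2.72 and 2.34 TPM, or 2.53 ± 0.269 (n = 2), on 188 and 154 counts. Eomes was above Neurog2 in both libraries, by 1.52 and 0.95 on the log2 scale, a mean of 1.23 ± 0.40.

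The immature neuron genes started with Neurod1, a basic helix-loop-helix factor needed for granule neurons to form and survive (chr2:79452521-79456751), at 29.7 and 32.7 TPM. Its mean was 31.2 ± 2.09 TPM (n = 2), on 1694 and 1730 counts, and exceeded that of Eomes by 3.45 and 3.80 on the log2 scale, a mean of 3.63 ± 0.25. That step was the largest of the 6 ratios computed between genes of the group. Prox1, the homeobox factor that sets and keeps granule cell identity (chr1:190118035-190170714), was the highest of the 9 at 47.7 and 49.6 TPM. Its mean was 48.6 ± 1.32 TPM (n = 2), on 6908 and 6666 counts, and it ranked 2243 among nuclear protein-coding genes, against 13158 for Neurog2. Prox1 exceeded Neurod1 by 0.68 and 0.60 on the log2 scale, a mean of 0.64 ± 0.06. Sox11, a factor of the SOXC group active in young neurons (chr12:27334264-27342574), stood at 32.5 and 30.8 TPM, or 31.7 ± 1.23 (n = 2), on 5794 and 5094 counts. Igfbpl1, which codes for a secreted protein related to the insulin-like growth factor binding proteins (chr4:45809468-45826923), stood at 27.1 and 26.7 TPM, or 26.9 ± 0.269 (n = 2), on 1312 and 1208 counts. Igfbpl1 was below Sox11 in both libraries, by −0.26 and −0.21 on the log2 scale, a mean of −0.24 ± 0.04. Sox11 over Sox2 gave 0.51 and 0.08, a mean of 0.30 ± 0.31, so that late-to-early ratio did not exceed its own spread. With 2 libraries the smallest two-sided p of a sign-flip permutation test is 0.5, so no ratio was tested over samples.

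By mean TPM the order ran Prox1, Hopx, Sox11, Neurod1, Igfbpl1, Sox2, Pax6, Eomes and Neurog2. The highest mean was 45.0-fold the lowest, but the upper 6 lay within 1.87-fold of each other. A gap of 4.97-fold separated Sox2 from Pax6. The library values of Sox11 and Neurod1 overlapped, and so did those of Igfbpl1 and Sox2, so neither pair had an order beyond its spread. The other 6 neighbouring pairs did not overlap. Replicate 2 alone ordered both of those pairs the other way, which left 5 of the 9 genes at their rank. By expected counts, not divided by length, Hopx would stand sixth, behind Sox2, and 4 of the 9 genes would keep their rank.

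Between the 2 libraries the reads were compared by a two-sided exact binomial test over the 12881 genes whose mean count reached 100, with Benjamini-Hochberg adjustment. That test compares these libraries and not conditions. Its p values cover counting error only, and the biological coefficient of variation of 0.0688 does not enter them. A call therefore does not show a difference beyond the usual spread between replicates. It called 1520 genes at an adjusted p under 0.05, 11.8% of those tested: 816, or 6.33%, were higher in replicate 2 and 704, or 5.47%, lower. Of the neurogenesis genes 8 could be tested, since Neurog2 fell under the count minimum, and 2 were called, Sox2 and Neurod1, both higher in replicate 2. A log2 ratio of at least 1 in size was reached by 39 called genes, 0.303%, and by none of the 8.

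Sox2 was 1.29-fold higher in replicate 2 on TMM-scaled counts, with an exact 95% counting interval of 1.18 to 1.40 and an adjusted p of 4.02e-07 by the exact binomial test. Its log2 ratio was 0.36, and it stayed between 0.35 and 0.36 with an adjusted p under 0.05 in all 7 settings run. Settings that change only which genes are tested leave the ratio as it is by construction. Neurod1 was 1.10-fold higher, with an interval of 1.03 to 1.18, a log2 ratio of 0.14 and an adjusted p of 0.0343 by the exact binomial test. That call ended without a filter on low counts, where the exact binomial test gave an adjusted p of 0.0647. Prox1 had a log2 ratio of 0.06 with an adjusted p of 0.0872, and Sox11 −0.07 with 0.0677, by the same exact test. On FASTQ-based counts both were called by the exact test, with adjusted p values of 0.0123 and 0.0109, and on counts scaled by the total Sox11 was called at 0.0410. Hopx had a log2 ratio of 0.10, Igfbpl1 −0.01, Pax6 −0.01 and Eomes −0.17, with adjusted p values from 0.451 to 0.995 by the exact test. For Eomes the counting interval of the fold ran from 0.711 to 1.10, so 188 and 154 counts leave any fold in that range possible. Neurog2, untested, was 1.28-fold higher in replicate 2, with a counting interval of 0.839 to 1.96. The median size of the log2 ratio was 0.09 over the 8 tested genes and 0.07 over all 12881.

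**Figure D2:**
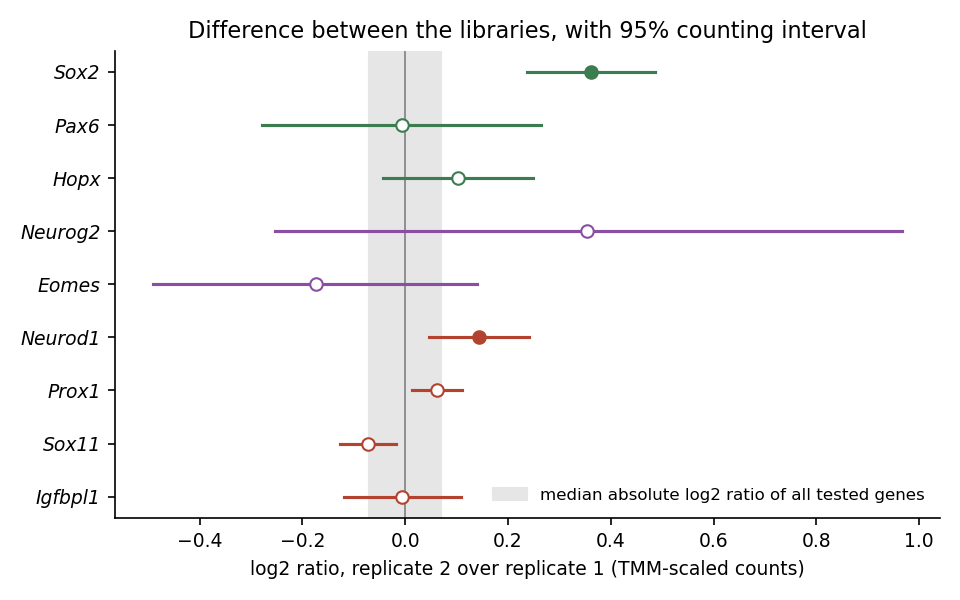
Log2 ratio of replicate 2 over replicate 1 on TMM-scaled counts, with horizontal lines for the exact 95% counting interval, coloured by stage, and filled points for genes called at an adjusted p under 0.05. Sox2 at 0.36 and Neurod1 at 0.14 are filled, and the grey band spans the median size of the ratio over all 12881 tested genes, 0.07 on either side of 0.

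The libraries also differed in cell type markers. Choroid plexus markers summed to 13.0 TPM in replicate 1 and 355 in replicate 2, led by the transthyretin gene Ttr at 8.02 and 340, with 3 of 6 detected in both libraries. The bone morphogenetic protein inhibitor gene Sostdc1 of that list went from 2.08 to 4.66 TPM, and Ttr and Sostdc1 both passed the 2-fold call. Ependymal markers summed to 16.6 and 23.0 TPM, with 4 of 5 detected, 2 tested and 1, Rarres2, higher. Astrocyte markers, where Sox2 and Hopx are also used, summed to 1161 and 1205 TPM. Slc1a2, at 662 and 729 TPM, held most of that sum, and the list median went from 108 to 107 TPM. All 6 markers were detected, 2 were higher in replicate 2 and 2 lower. Oligodendrocyte precursor markers summed to 203 and 206 TPM, with 6 of 6 detected, 1 higher and 2 lower. For hippocampal excitatory neurons, a class that includes granule neurons, 6 of 6 were detected, 5 were higher in replicate 2, and the sums were 2246 and 2435 TPM. Their called log2 ratios ran from 0.07 to 0.32, and the list median was 0.10. Over all tested genes 6.33% were higher and 5.47% lower, with a median size of 0.07. A gene with many counts can be called at a ratio of that size. Of the markers of interneurons from the caudal ganglionic eminence, in which Prox1 is used, 5 of 5 were detected with sums of 59.2 and 56.0 TPM, and 1 was lower. Cajal-Retzius cell markers, with 3 of 5 detected, summed to 72.3 and 64.4 TPM. The reelin gene Reln, at 55.6 and 46.6 TPM, held most of that sum and was lower. The other tested markers, Ndnf and Trp73, each had a log2 ratio of 0.05 and were not called. Lhx1, at 0.88 TPM in replicate 1 and 0.65 in replicate 2, and Lhx5, at 0.3 and 0.21, had too few counts to be tested. The list as a whole was not tested. No marker of these lists was at 0 in both libraries, and the part of these cells in the values of Sox2, Hopx, Neurod1 and Prox1 was not tested.

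Lists of other genes of the same lineage showed where the 9 stand. All 16 of 16 stem cell and radial glia genes were detected, and their median was 13.2 ± 0.863 TPM (SD over libraries, n = 2). They were led by the fatty acid binding protein gene Fabp7 at 276 ± 6.47, the glutamate transporter gene Slc1a3 at 198 ± 2.28 and the filament gene Gfap at 130 ± 11.4, all of which astrocytes use as well. The lowest was the lysophosphatidic acid receptor gene Lpar1 at 4.35 ± 0.156. Sox2 and Hopx were above that median and Pax6 below it. In this list 2 of 16 genes were higher in replicate 2 and none lower, namely Gfap with a log2 ratio of 0.18 and Sox9 with 0.27. Beside these counts and those of the lists below, 6.33% of all tested genes were higher and 5.47% lower.

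Of 10 intermediate progenitor genes 8 passed detection, and the median was 5.21 ± 0.124 TPM (n = 2). The RNA-binding protein gene Elavl4, which mature neurons also use, led at 38.4 ± 2.94, followed by the somatostatin receptor gene Sstr2 at 22.9 ± 2.40 and the growth arrest gene Gadd45g at 8.91 ± 2.04. The lowest was Neurod4 at 0.31 ± 0.0424. Both Eomes and Neurog2 lay below the median of this list, so their low level was not shared by all genes of the list. Neurod4 and Tfap2c, at 0.895 ± 0.0636 TPM, lay below both. How much of each value came from cells of this stage was not tested. Of the 8 tested, Sstr2 was higher in replicate 2 with a log2 ratio of 0.22 and Gadd45g lower with −0.44. Proliferation genes, which dividing progenitors of any lineage use, were all detected, 10 of 10, with a median of 3.83 ± 0.219 TPM (n = 2). The replication clamp gene Pcna led at 24.8 ± 0.191, with the helicase gene Mcm6 at 8.38 ± 0.0707, the topoisomerase gene Top2a at 7.28 ± 0.205 and the lowest, Birc5, at 2.24 ± 0.0141. None of the 7 tested was called.

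Immature granule neuron genes, 10 of 10 detected, had a median of 57.5 ± 0.799 TPM (n = 2). They were led by the neuronal tubulin gene Tubb3 at 464 ± 37.1 and the microtubule regulator gene Stmn1 at 445 ± 36.2, followed by the RNA-binding protein gene Elavl3 at 91.2 ± 1.24, and many neurons outside the dentate share these. The lowest was Draxin at 4.98 ± 0.212. In this list 4 of 10 genes were lower in replicate 2 and none higher. They were Tubb3, Stmn1, Elavl3 and the doublecortin gene Dcx, which stood at 80.3 and 66.2 TPM, a log2 ratio of −0.31. Among the 9 genes, Sox11 lay on the same side at −0.07 without passing the test, and Neurod1 was higher. Of the mature granule neuron genes 7 of 8 were detected, and the median was 10.2 ± 1.96 TPM (n = 2). The calcium-binding protein gene Calb1 led at 39.4 ± 0.495, then Rfx3 at 38.1 ± 1.18 and Stxbp6 at 17.2 ± 0.283, with Plk5 lowest at 1.01 ± 0.332. Of 6 tested, 3 were higher in replicate 2 and none lower: Calb1, C1ql2 and Lct, with log2 ratios of 0.15, 0.32 and 0.51. The genes called in these lists are named because they were called, after their values were seen. Over all tested genes 6.33% were higher in replicate 2 and 5.47% lower.

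**Figure D3:**
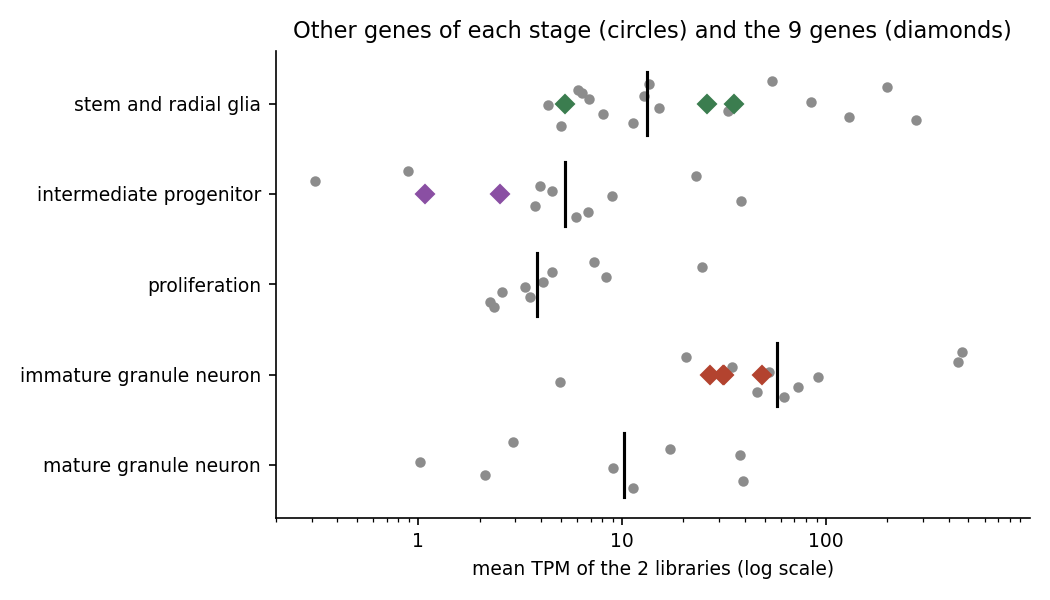
Mean TPM of the 2 libraries on a log axis for the other genes of each lineage list (grey circles, vertical position arbitrary within a row), the list median (black bar) and the 9 genes (coloured diamonds) beside the list of their stage. Eomes and Neurog2 lie to the left of their list's median of 5.21 TPM, and the 4 immature neuron genes to the left of theirs at 57.5 TPM.

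Levels of the relatives that were listed varied by family. The list was not complete, and held none for Hopx or Igfbpl1. Of its 14 paralogues 7 were detected, with none of those 7 called between the libraries. Within the NEUROD family, Neurod6 at 117 ± 0.191 TPM and Neurod2 at 52.6 ± 2.17 exceeded Neurod1 in both libraries, while Neurod4 stood at 0.31 ± 0.0424. Of the neurogenins, Neurog2 was the one with more than 1 count in a library: Neurog1 and Neurog3 had 1 count each in replicate 1 and 0 in replicate 2. Among SOX genes related to Sox2, Sox1 stood at 5.53 ± 0.438 TPM and Sox3 at 2.84 ± 0.163. Of the SOXC group, Sox4 at 34.7 ± 0.481 was above Sox11 in both libraries and Sox12 at 16.6 ± 0.290 below it. Tbr1, the relative of Eomes that follows it in cortical neurons, stood at 20.6 ± 0.919 TPM, and Tbx21 at 0.06 ± 0.0283. The Prox1 relative Prox2 stood at 0.64 ± 0.0141, and the Pax6 relatives Pax2 at 0.095 ± 0.00707 and Pax8 at 0 by alignments in both libraries.

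The libraries were quantified by 2 routes from the same reads, from transcriptome alignments (used above) and directly from the FASTQ files. The FASTQ-based TPM was higher for the median gene by 0.63 on the log2 scale in both libraries, and differences between the routes are given relative to that. Of 18483 genes that reached a mean TPM of 1 by the alignments or the FASTQ-based table, 2087, or 11.3%, differed by at least 1 on the log2 scale in the same direction in both libraries. None of the 9 genes did. Pax6 came nearest, at 0.67 and 0.53 above the median gene, and Neurod1 was −0.18 in both libraries. FASTQ-based means ran from 72.8 ± 3.07 TPM for Prox1 to 1.62 ± 0.247 for Neurog2 (n = 2). In that order Sox2, at 40.6 ± 6.86 TPM, stood above Igfbpl1, at 37.9 ± 0.330, the reverse of the alignments.

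**Figure D4:**
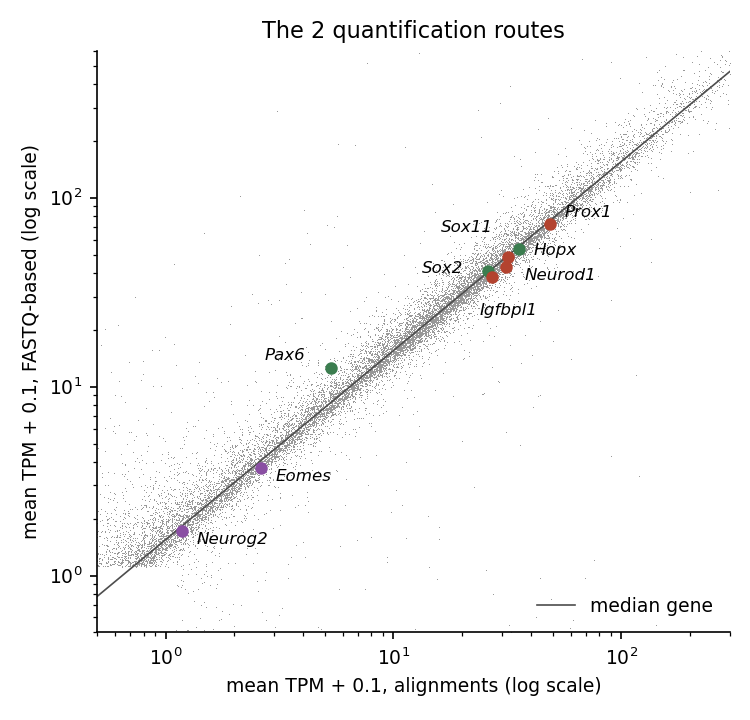
Mean TPM of the 2 libraries by alignments and by the FASTQ-based table, both on log axes with 0.1 added, with a small grey dot for each other gene inside the plotted range and a line at the shift of the median gene. Pax6 stands above the line, at 12.4 TPM by the FASTQ-based table against 5.23 by alignments, and the other 8 genes lie close to it.

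The level of Pax6 was uncertain within the alignment route too. The authors' table gives, beside each TPM, an interval and a posterior mean, both from repeated draws of the read assignment. The TPM of 5.30 and 5.15 lay below the interval in both libraries, which ran from 5.91 to 8.89 and from 5.93 to 8.73, and the posterior means were 7.37 and 7.32. Of 13062 protein-coding genes at a TPM of at least 1 in both libraries, 482, or 3.69%, lay outside their own interval in both, and 2 of the 8 neurogenesis genes did, Pax6 and Sox11. Sox11 missed by little: 32.5 against an upper bound of 32.4, and 30.8 against 30.6. Within the alignment route, the number of reads given to a gene was less uncertain than its split over transcripts. That number had a posterior SD of 0 in both libraries for 82.2% of those 13062 genes and for 7 of the 8. The exception among the 8 was Neurod1 with 0.33 and 0.21 counts. For Pax6 the routes differed in that number, with 238 and 219 counts by alignments and 285 and 277 by the FASTQ-based table.

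The leading transcript of Hopx differed between the 2 routes in both libraries, and that of Pax6 between the libraries, so the start regions of Hopx and the alternative exon of Pax6 are shown. RefSeq lists 11 start regions for 8 of the 9 genes. For Hopx, on the minus strand of chromosome 5, it has an upstream and a downstream start. The 250 bases before each (RefSeq, GRCm38.p6, minus strand) follow, with matches to the E-box letters CANNTG in capitals. CANNTG is the general motif of basic helix-loop-helix factors, and a match does not mark a proneural form:
Hopx upstream start, chr5:77115124-77115373: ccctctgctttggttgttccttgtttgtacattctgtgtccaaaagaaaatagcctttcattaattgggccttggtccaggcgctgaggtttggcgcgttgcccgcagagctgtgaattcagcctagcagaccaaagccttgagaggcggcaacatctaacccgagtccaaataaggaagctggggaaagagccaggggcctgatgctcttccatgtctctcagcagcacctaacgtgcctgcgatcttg
Hopx downstream start, chr5:77095268-77095517: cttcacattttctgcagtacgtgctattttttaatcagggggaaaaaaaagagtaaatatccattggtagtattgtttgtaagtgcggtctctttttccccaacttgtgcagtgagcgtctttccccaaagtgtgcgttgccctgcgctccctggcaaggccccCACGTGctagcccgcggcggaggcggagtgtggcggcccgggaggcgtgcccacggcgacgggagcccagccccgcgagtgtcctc
The downstream region held 1 E-box match, CACGTG, and the upstream region none. Of 32851 start regions of that length in the RefSeq table, 66.2% held at least 1 (both strands, and the letters read the same on each). The letters CAGATG are an E-box form that NEUROD1 and neurogenins are known to prefer, contained in CANNTG. They were in neither Hopx region, and in 14.4% of all start regions. Of the 11 regions only the one before the upstream Prox1 start held that form. The SOX motif AACAAT, on either strand, was in the downstream Hopx region and in that of Neurog2, against 9.42% of all. A match is a description of letters and not of binding.

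By alignments, transcript Hopx-202, whose first base is at 77095277 close to the downstream start, held 79.3% and 84.0% of the gene's TPM in the 2 libraries. Hopx-201, the transcript from the upstream start at 77115121, held 4.46% and 4.24%, a mean of 4.35% ± 0.157 (SD, n = 2). By the FASTQ-based table the order was the opposite: Hopx-201 held 61.0% and 70.9%, a mean of 66.0% ± 6.97, and Hopx-202 held close to 0% in both libraries. The remaining transcript Hopx-203, also from the downstream start, held 16.3% and 11.7% by alignments and 39.0% and 29.1% by the FASTQ-based table. The deposited interval for Hopx-201 by alignments, 0.600 to 2.86 TPM in replicate 1, did not include the FASTQ-based 32.1 TPM. The total for the gene was close by both routes, 772 and 766 against 797 and 772 counts, and all 3 transcripts carry the same 219 coding bases. Which start most Hopx RNA came from was therefore not settled by these tables. Of 12316 genes with at least 2 transcripts, 2225, or 18.1%, had another leading transcript by the other route in both libraries, and of the 5 such neurogenesis genes Hopx alone did.

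**Figure D5:**
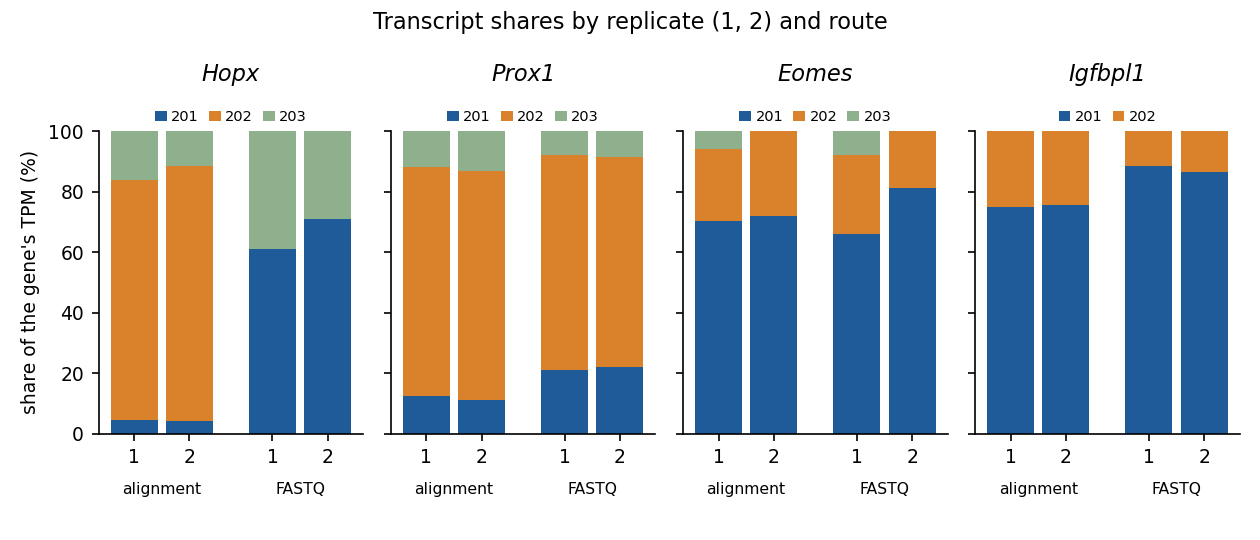
Share of each gene's TPM by transcript, stacked to 100%, for replicates 1 and 2 by alignments and by the FASTQ-based table, with transcripts numbered as in GENCODE M21. Hopx-202 holds 79.3% and 84.0% by alignments and is not visible in the FASTQ-based bars, while the leading transcript of Prox1, Eomes and Igfbpl1 is the same in all 4 bars.

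Pax6 has 26 transcripts, and its coding transcripts differ by an exon of 42 bases, or 14 codons, which adds residues within the DNA-binding paired domain and changes which sequences the protein binds. The exon lies at chr2:105684751-105684792 on the plus strand (mm10, GENCODE M21), and is shown in capitals with 12 bases of each neighbouring exon:
Pax6 exon: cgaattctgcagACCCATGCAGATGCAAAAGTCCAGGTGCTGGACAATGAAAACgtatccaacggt
Of the 26 transcripts 9 contain it, 6 join its neighbours without it and 11 do not span it. Of the TPM of the transcripts that span the site, those with the exon held 32.4% and 36.0% by alignments, a mean of 34.2% ± 2.55 (n = 2), and 33.0% and 43.2% by the FASTQ-based table. Among the complete coding transcripts alone, the shares with the exon were 19.9% and 28.0% by alignments, but 0.000585% and 12.3% by the FASTQ-based table. No transcript dominated. The highest by alignments were Pax6-204 in replicate 1, with 20.8%, and Pax6-202 in replicate 2, with 15%. Another leading transcript in the other library was found for 1371 of the 12316 genes, 11.1%, and among the 5 neurogenesis genes for Pax6 alone. Transcripts with a retained intron held 17.7% and 16.5% by alignments, and 15.7% and 16.2% by the FASTQ-based table. With 238 and 219 counts over 26 transcripts, shares of single Pax6 transcripts were not precise at this depth.

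Eomes transcripts 201 and 202 differ by 57 coding bases, or 19 codons, at the start of the last exon. The segment lies at chr9:118484274-118484330 on the plus strand (mm10, GENCODE M21), and is shown in capitals between 12 bases of each side of the Eomes-201 transcript:
Eomes segment: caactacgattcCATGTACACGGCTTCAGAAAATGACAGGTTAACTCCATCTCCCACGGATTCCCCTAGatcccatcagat
Eomes-201, which includes it and codes over 2121 bases, held 70.2% and 71.8% of the gene's TPM by alignments, a mean of 71.0% ± 1.11 (n = 2), and 66.1% and 81.3% by the FASTQ-based table. Eomes-202, without it and coding over 2064 bases, held 23.9% and 28.2% by alignments. The longer form led in both libraries by both routes.

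For Prox1 the same transcript led throughout. Prox1-202, with a last exon of 5371 bases, held 75.8% and 75.9% by alignments and 70.9% and 69.4% by the FASTQ-based table. Prox1-201, which begins near the downstream of the 2 RefSeq starts, held 12.3% and 11.0% by alignments and 21.1% and 21.9% by the FASTQ-based table. All 3 Prox1 transcripts carry 2211 coding bases. Igfbpl1-202, annotated as a processed transcript without a coding sequence, held 25.1% and 24.5% of Igfbpl1 TPM by alignments and 11.4% and 13.7% by the FASTQ-based table. That part of the gene's level is not coding RNA by annotation. Sox2, Sox11, Neurod1 and Neurog2 have 1 transcript each.

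Genes that overlap the 9 on the genome could share reads with them, since the use of strand in counting was not given in the sources used here. Sox2 lies within the long non-coding gene Sox2ot on the same strand, which stood at 9.67 and 13.1 TPM on 450 and 459.8 counts. Neurod1 lies within the span of the ceramide kinase-like gene Cerkl on the same strand, at 2.11 and 2.09 TPM. Among antisense partners, Prox1os stood at 3.35 and 2.04 TPM on 53 and 30 counts, Hopxos at 0.44 and 0.29 on 15 and 9 counts and Pax6os1 at 0.17 and 0.07. Gm28172 over Prox1 had 4 counts and 1 count, Gm26755 over Neurod1 had 2 and 3, and Gm33460 over Eomes had 0 in both. None of these antisense genes held more than 53 counts in a library, beside 6908 for Prox1, 772 for Hopx, 238 for Pax6, 1694 for Neurod1 and 188 for Eomes. Sox2ot, with 450 counts beside 967 for Sox2, was the largest overlapping gene relative to its partner. The Sox2 count had a posterior SD of 0 in both libraries, so the alignment route did not split its reads with Sox2ot. Whether reads given to Sox2 came from Sox2ot RNA was not tested. No annotated gene overlaps Neurog2, Sox11 or Igfbpl1.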

How the data were processed

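Gene and transcript tables of 2 libraries were analysed. Per the deposited descriptions, expected counts and TPM were made from transcriptome alignments to mm10 with GENCODE M21. The deposited TPM adds up to an equal total in both libraries with spike-in rows counted in, and the same tables list the authors' percent of a gene's TPM in each transcript, an interval on TPM and a posterior SD. A further deposited table gives estimated counts and TPM from the FASTQ file. Aligner and quantifier names were not given in the sources used here. Over transcripts longer than 1000 bases, effective lengths fell short of full lengths by 99 bases in the first table and by medians of 352 and 356 in the other.

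FASTQ-based values were summed per gene. Expected counts were rounded to whole numbers and scaled by TMM in edgeR 4.0.16 (R 4.3.3) on genes kept by filterByExpr. Genes whose mean count reached 100 were compared by an exact binomial test, two-sided, adjusted by Benjamini-Hochberg and called at an adjusted p under 0.05. That script was tested on simulated data. Log2 ratios of counts use a prior count of 0.5 and route ratios a pseudocount of 0.1 TPM. Counting intervals are exact Clopper-Pearson or Poisson intervals at 95% and cover counting error only, since no source names molecular identifiers. The counts of Xist and of Y-linked genes show that the libraries were not made from the same RNA, and the number of animals behind each is not spelled out.

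The 9 genes, the 13 gene lists and the tests were chosen with earlier results of these data known. Named were the 9 genes, all overlapping genes and listed paralogues, and the 3 highest and the lowest of each lineage list. Cell type marker lists, planned the same way, are given by sums and counts with the leading or called genes that bear on a result. Genes called in a lineage list, Tfap2c, Lhx1 and Lhx5 are named as well. Alternatives were DESeq2 1.42.0 size factors, total counts, other filters and pseudocounts, the FASTQ-based tables, TPM over protein-coding genes, and 1 library at a time. A binomial test without genes of the X and Y chromosomes, the 2 isoform shares by the other route and the posterior mean of Pax6 were added after seeing the data. That test kept the scaling of the main one, so only its adjusted p values could change. Software was Python 3.11.15 with numpy 2.4.6, scipy 1.17.1, matplotlib 3.10.9 and pandas 2.3.3.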

Additional observations from a re-analysis of the deposited data

How the results depend on the processing

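No paired analysis was possible because there is 1 group. The FASTQ-based TPM and TPM over protein-coding genes rescale all levels: stage medians became 40.6 and 56.2 TPM for stem cells, 2.61 and 3.91 for intermediate progenitors and 45.7 and 68.1 for immature neurons, in the same order. With Neurod1 (mean 31.2 TPM) in that stage, the intermediate progenitor median was 2.53 TPM. That is the value of Eomes, for any level of Neurod1 above it. This setting could therefore not change the low middle of the profile, and a mean with Neurod1 in that stage was not computed. The mean over the immature neuron genes was 34.6. Without replicate 1, 5 genes kept their rank, and without replicate 2, 9; by counts not divided by length, 4 did. Counts not divided by length moved log2 ratios to 2.37 (Sox11 over Sox2), 3.33 (Neurod1 over Eomes), 1.83 (Eomes over Neurog2), 1.99 (Prox1 over Neurod1) and −2.11 (Igfbpl1 over Sox11). A pseudocount of 1 TPM gave 3.19 for Neurod1 over Eomes and 0.76 for Eomes over Neurog2. The FASTQ-based TPM gave 0.77 for Prox1 over Neurod1, 1.70 for Sox2 over Pax6 and −0.36 for Igfbpl1 over Sox11. No ratio changed sign. Called genes at 2-fold between the libraries were 176 with a mean count of at least 10 and 196 with no filter, where more genes are tested. Genes apart between routes numbered 1301 with a pseudocount of 1, 807 at a TPM of at least 5 and 3485 not centred, when Pax6 was among them. Leading shares by the FASTQ-based table were 73.7% (Eomes-201), 4.88e-09% (Hopx-202), 87.5% (Igfbpl1-201), 9.46% (Pax6-204) and 70.2% (Prox1-202), and by counts 76.1% (Eomes-201), 92.8% (Igfbpl1-201) and 88.7% (Prox1-202). Causes were not tested beyond this. Depth limits Neurog2, Eomes and the Pax6 transcripts.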
